A study of Glycine max with 44 samples.

Results

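Glutathione S-transferases (GSTs) other than GSTU41, GSTU42, GSTU43 and GSTU47 were followed in soybean root tips with and without aluminium (Al). They were taken as every soybean probe set of the array whose single annotated gene symbol begins with GST, leaving out those 4 genes. This gave 33 probe sets of 20 genes, out of 37593 soybean probe sets and 61170 probe sets in all. By the letter in the symbol or its synonym, 17 probe sets (12 genes) belong to the tau class, 6 (3 genes) to phi, 4 (2 genes) to lambda, 2 (1 gene) to theta and 2 (1 gene) to zeta. The tau class includes GSTa, whose synonym is GSTU48, and GST3, whose synonym is GSTU53. The phi class includes GST24, whose synonym is GSTF10. The remaining 2 probe sets belong to GSTIR, whose symbol gives no class.

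GSTs join the tripeptide glutathione to reactive or foreign molecules, which marks these for transport into the vacuole. Tau and phi enzymes are the large classes of plants, known for herbicide detoxification and, in many members, for reducing organic peroxides. Theta enzymes also reduce peroxides, zeta enzymes act in the breakdown of tyrosine, and lambda enzymes carry a cysteine at the active site and act as thiol transferases.

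The samples compare the transcripts of 2 soybean genotypes under Al, of which PI 416937 is labelled tolerant and Young sensitive. Hydroponic cultures held 10 µM Al, or 0 µM in the untreated groups, and total RNA of the tap root tip, 1 cm long, was hybridised to 44 Affymetrix arrays after 2, 12, 48 and 72 h. Genotype, treatment and time give 16 groups, with 2 arrays each at 2 h and 3 each at the later times. The labels give no age and do not say whether replicates came from separate plants or cultures, so p-values measure the spread between these arrays. Hours of treatment are also hours of growth, and these cannot be told apart between times.

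Values are log2(intensity + 16) of the deposited intensities, so differences of dim probe sets are understated. Background was set at 4.41, under which 95% of the probe sets made for other organisms had their mean. The number of arrays limits the precision. All 33 GST probe sets passed the filter, which asked for a mean above background in at least 1 group, and 31 were above it in all 16 groups. GSTU37 was above it in 11 groups and the A1_at probe set of GSTU9 in 1, so the latter held no usable signal. Probe sets of 1 gene are told apart by the ending of their name, where _s_at and _x_at ones can bind related transcripts and _a_at ones several transcripts of the gene. Differences were tested with limma over 35289 soybean probe sets, a call being a Benjamini-Hochberg adjusted p under 0.05. A value after ± is the standard error of that fit. Tissue was looked at with short lists of genes picked by symbol. The root list, 33 probe sets of 18 PIP, TIP and IFS genes, summed to group means of 287000 to 391000 intensity units. The leaf list, 14 probe sets of 4 PSAD, CAB and RCA genes, summed to 9300 to 16300. Its brightest probe set, of PSAD, had group means of 12.93 to 13.67 in log2(intensity + 16). How well the lists mark a tissue was not tested. Fewer cells of a type and less RNA per cell cannot be told apart in such samples.

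Some arrays lay to one side of their group for most GST probe sets. Replicate 1 of Young with Al at 12 h was the highest of its 3 arrays for 29 of the 33, and replicate 1 of Young with Al at 72 h was the lowest for 28. Replicate 3 of untreated PI 416937 at 48 h was the lowest for 28, and replicate 1 of untreated PI 416937 at 72 h the highest for 24. The labels also carry sample codes in 2 runs. Codes KS1 to KS24 cover all arrays at 2 h and replicates 1 and 2 at 12 and 48 h, and codes KS25 to KS44 cover replicate 3 at 12 and 48 h and all arrays at 72 h. With group held fixed, 11 of the 33 GST probe sets differed between the runs of codes, against 20.4% of all tested probe sets. All 11 were lower in KS25 to KS44. Within a group the codes differ only at 12 and 48 h, so this estimate rests on replicate 3 against replicates 1 and 2 there. Whether it holds for the arrays at 2 and 72 h was not tested. As KS25 to KS44 minus KS1 to KS24, the difference in the _at probe set of GSTZ3 was -0.56 ± 0.08. That in 1 of the 2 _at probe sets of GSTF5 was -1.15 ± 0.13. The differences between early and late times below are given with and without a term for the codes, and the times of the highest group means without it. At each time the codes are spread alike over genotypes and treatments. What the codes stand for is not given in the sources used here.

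**Figure D1:**
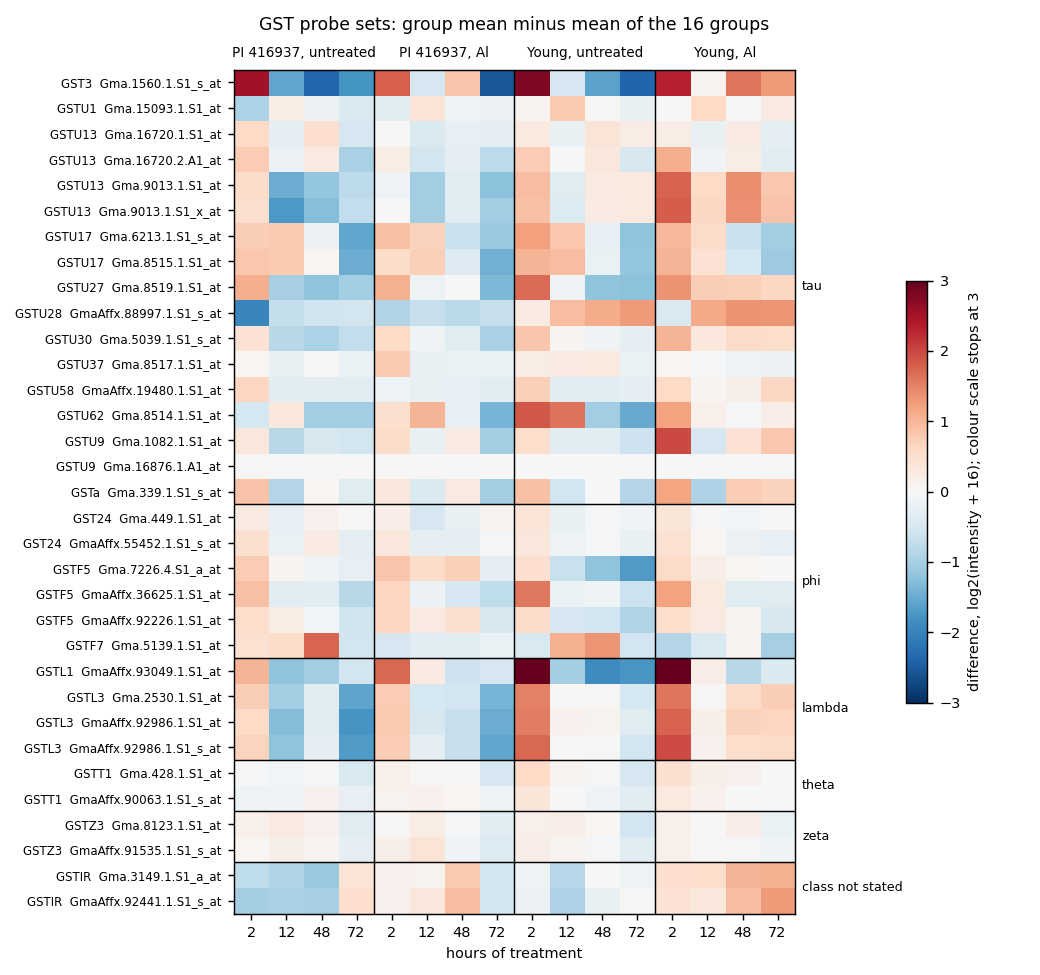
Group means of the 33 GST probe sets in the 16 groups, each minus the mean of the 16 groups, in log2(intensity + 16). Rows are probe sets by class and columns are hours of treatment within genotype and treatment. The 2 h columns are the reddest for most tau, phi and lambda rows, and the Young columns are redder than those of PI 416937 for GSTU28 and GSTL3.

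Of the 33 probe sets, 26 (78.8%) had their highest group mean at 2 h, against 26.3% of all tested probe sets, and for 20 of them that group was Young at 2 h, with or without Al. All 4 lambda and both theta probe sets peaked at 2 h, as did 15 of 17 tau and 5 of 6 phi probe sets. Both GSTZ3 probe sets peaked at 12 h and both GSTIR probe sets at 72 h. Over the 16 groups of genotype, Al and time, the range of means was widest for GST3, at 5.34, and GSTL1, at 5.25, and was between 0.70 and 1.09 for the probe sets of GSTT1 and between 0.83 and 0.84 for those of GSTZ3.

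In untreated roots, 18 GST probe sets of 12 genes were higher in the mean of 2 and 12 h than in the mean of 48 and 72 h, and 1 was lower, against 37.3% of all tested probe sets called in either direction, 16.9% higher and 20.5% lower. The median difference was 0.40 over the GST probe sets and -0.01 over all tested. With the term for sample codes the counts were 10 higher and 0 lower, against 23.0% of all tested, and the median was 0.16. All 10 had been called without the term. They belong to 8 genes: GST3, GSTU17, GSTU27, GSTU30 and GSTU62 of tau, GSTF5 of phi, and GSTL1 and GSTL3 of lambda. The call was lost with that term for both GSTZ3 probe sets and for the _at probe set of GSTT1, which differed by 0.40 ± 0.12 without the term and by 0.17 ± 0.09 with it. The GSTZ3 differences went from 0.37 and 0.29 without the term to 0.09 and 0.13 with it. It was lost too for GSTU58, at 0.49 without and 0.50 with the term (adjusted p = 0.0551), and for GSTU28. The A1_at probe set of GSTU13 went from 0.55 to 0.37 and 1 of the 3 of GSTF5 from 0.74 to 0.16. On 2 of the 3 probe sets of GSTL3 the difference went from 0.91 to 0.59 and from 0.84 to 0.60. Within the first run of codes, where the 2 and 12 h arrays are set against 48 h, 22 of 33 differences were positive. Within the second run, where 12 h is set against 48 h, 21 were. The second run holds no 2 h arrays, so the values within the 2 runs, here and below, are unlike contrasts.

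GST3, a tau enzyme, had the largest of these differences. In untreated PI 416937 it read 13.04 and 12.09 at 2 h, 8.81, 8.30 and 8.37 at 12 h, 8.35, 7.95 and 6.81 at 48 h, and 10.87, 6.89 and 7.06 at 72 h. In untreated Young it read 13.09 and 12.58 at 2 h, 10.42, 8.59 and 9.65 at 12 h, 8.54, 8.57 and 8.20 at 48 h, and 7.34, 7.80 and 7.85 at 72 h. All arrays at 2 h lay above all later arrays of both genotypes, and the highest late array was replicate 1 of untreated PI 416937 at 72 h. The difference between early and late was 2.84 ± 0.47 (adjusted p = 2.94e-05), and 2.32 ± 0.48 with the code term. Within the first and second run of codes it was 2.52 and 1.5.

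GSTU17, another tau enzyme, changed in smaller but tighter steps. On the _s_at probe set untreated PI 416937 read 10.87 and 11.16 at 2 h, 10.84, 11.25 and 11.07 at 12 h, 9.92, 10.62 and 9.74 at 48 h, and 8.85, 8.62 and 8.71 at 72 h. Untreated Young read 11.47 and 11.52, then 10.75, 11.19 and 11.30, then 10.31, 10.27 and 9.50, and last 8.83, 9.11 and 9.26. Early and late arrays did not overlap. The difference was 1.68 ± 0.13 (adjusted p = 3.4e-10), and its other probe set gave 1.58 ± 0.13. With the code term they were 1.57 ± 0.14 and 1.54 ± 0.14. Within the first and second run of codes the _s_at probe set differed by 0.85 and 1.57.

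GSTL1, a lambda enzyme, was high at 2 h in Young above all. Untreated Young read 11.19 and 10.21 at 2 h and between 5.41 and 7.14 on its 9 later arrays. Untreated PI 416937 read 9.42 and 7.43 at 2 h and between 5.13 and 8.11 later. The 2 h arrays lay above the later ones in Young, and the lower one of PI 416937 lay among its later ones. The difference was 1.82 ± 0.41 and, with the code term, 1.73 ± 0.46. Within the runs of codes it was 1.82 and 0.81.

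GSTU62, of the tau class, read 8.03 and 7.73 at 2 h and 9.04, 7.49 and 6.39 at 12 h in untreated Young. At 48 h it read 4.82, 5.65 and 4.43 there, and at 72 h 4.45, 4.51 and 4.51. Untreated PI 416937 read 5.19 and 5.78 at 2 h, 6.31, 6.38 and 6.29 at 12 h, 5.14, 4.87 and 4.87 at 48 h, and 5.76, 4.49 and 4.64 at 72 h. Early and late arrays were apart in Young and overlapped in PI 416937, and most late arrays were near background. Its early minus late difference was 1.99 ± 0.30, and 1.53 ± 0.28 with the code term, while within the runs of codes it was 1.87 and 1.69. GSTU27 differed by 1.58 ± 0.28, by 1.30 ± 0.30 with the code term, and by 1.69 and 0.39 within the runs.

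Of the GSTF5 probe sets that kept the call, the _a_at one differed by 1.0 ± 0.20, by 0.68 ± 0.19 with the code term, and by 0.62 and 0.79 within the runs. The other differed by 0.97 ± 0.17 and, with the term, by 0.80 ± 0.18. Within the runs it differed by 0.70 and, in the second run without 2 h arrays, by -0.19. GSTU30 differed by 0.64 ± 0.16, by 0.55 ± 0.18 with the term, and by 0.41 and 0.75 within the runs. The _s_at probe set of GSTL3 kept the call with 0.95 ± 0.25 without and 0.78 ± 0.27 with the term, while within the runs it differed by 0.24 and 0.04. GSTU28, a tau enzyme, was the one probe set lower early, by -0.69 ± 0.23. With the code term it differed by -0.67 ± 0.26 (adjusted p = 0.0629). Within the runs it differed by -0.75 and, in the second run without 2 h arrays, by 0.26.

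**Figure D2:**
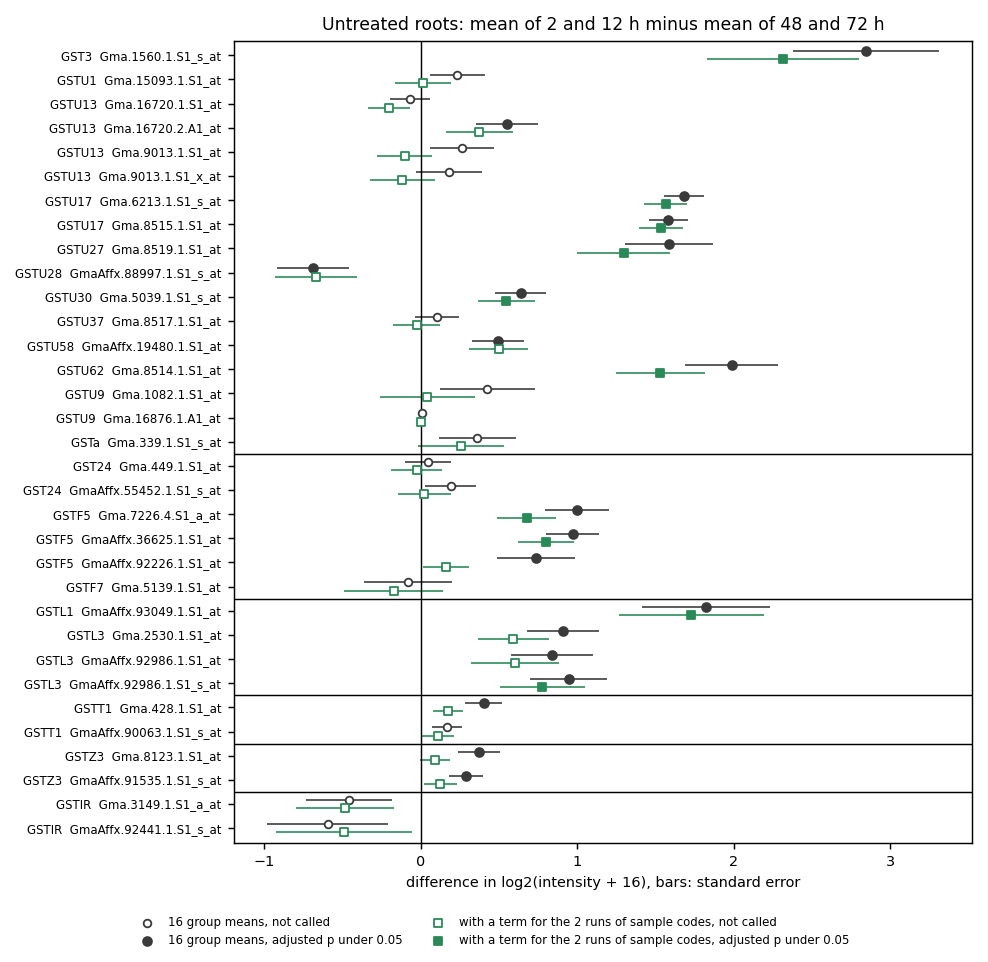
Untreated roots, mean of 2 and 12 h minus mean of 48 and 72 h over both genotypes, in log2(intensity + 16), for the 33 GST probe sets. Bars are standard errors, and filled symbols have an adjusted p under 0.05, without (circles) and with (squares) the term for sample codes. GST3, GSTU62, GSTL1, GSTU17 and GSTU27 keep differences above 1 in both fits, while the theta and zeta rows move towards 0.

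Over the 8 comparisons of Al with no Al, 8 calls were made on 5 GST probe sets of 5 genes. These were 15.2% of the 33, against 7.8% of all tested probe sets called in at least 1 of the 8. The other 28 had no call. The 5 were GST3 (NCBI gene 547925) and GSTU27 (547577) of tau, GSTF5 (547589) and GSTF7 (547588) of phi, and GSTIR (100301898). No lambda, theta or zeta probe set was called. The calls were made at 48 and 72 h, and none at 2 or 12 h. For the 28 without a call, the largest Al difference of each probe set in any of the 8 comparisons lay between 0.03 and 1.71 in size in 15 tau, 0.36 and 0.76 in 4 phi, 1.02 and 1.45 in 4 lambda, 0.29 and 0.52 in 2 theta and 0.26 and 0.37 in 2 zeta probe sets, and was 1.94 in 1 of GSTIR.

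At 2 h no GST probe set was called in either genotype, against 1.01% of all tested in PI 416937 and 0.105% in Young. At an unadjusted p under 0.05 there were 4 in PI 416937 and 1 in Young, with no share of all tested given for that threshold. In PI 416937 1 GST probe set was called when Al replicate 1 or either untreated array was left out. The smallest p in PI 416937 was for GSTU37, at 0.73 ± 0.33, and GSTU58, at -0.80 ± 0.38. GSTU58 stood at -1.57, with a call, without untreated replicate 1 and at -0.02 without untreated replicate 2. In Young the smallest p was for the S1_at probe set of GSTU9, at 1.44 ± 0.70, and for the _x_at probe set of GSTU13, at 0.94. With 1 array left out these lay between 0.54 and 2.35 and between 0.30 and 1.58. The 2 arrays per group left standard errors as large as 1.08 for GST3, which read 13.31 and 10.37 with Al in PI 416937 and 13.96 and 10.81 in Young.

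At 12 h again no GST probe set was called, against 0.00283% of all tested in PI 416937 and 0.0822% in Young. There were 1 and 7 at an unadjusted p under 0.05, again with no share of all tested given for that threshold. The smallest p in PI 416937 was for GSTU30, at 0.70 ± 0.31, and the _s_at probe set of GSTL3, at 0.93 ± 0.47. In Young it was for GSTF7, at -1.53 ± 0.53, and GSTIR, at 1.39 ± 0.52. All 4 lambda probe sets, which are of only 2 genes, had positive estimates in both genotypes, none of them called. The median was 0.88 in PI 416937 and 0.08 in Young. Those of GSTL3 in Young were 0.04 to 0.12, below their standard errors.

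At 48 h GST3 and GSTIR were higher and GSTF7 was lower with Al in PI 416937, so 2 GST probe sets were called higher and 1 lower, against 4.04% of all tested called, 3.39% higher and 0.652% lower. GST3 read 11.57, 11.56 and 9.55 with Al and 8.35, 7.95 and 6.81 without. All Al arrays lay above all untreated ones. The difference was 3.19 ± 0.88 (adjusted p = 0.033).

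GSTIR, on its _a_at probe set, read 10.40, 10.88 and 10.92 with Al and 9.05, 9.28 and 8.17 without, again with no overlap, a difference of 1.90 ± 0.52 (adjusted p = 0.0305). Its other probe set gave a like difference of 1.94 without a call. GSTF7, a phi enzyme, read 6.41, 5.64 and 5.01 with Al and 7.42, 7.72 and 8.11 without, a difference of -2.06 ± 0.53 (adjusted p = 0.0213). Of these 3 calls 0 held without untreated replicate 3 or without Al replicate 2. Without untreated replicate 2 only that of GSTIR held, without Al replicate 1 only that of GSTF7, and without Al replicate 3 only that of GST3. Without untreated replicate 1 those of GSTF7 and GST3 held. The untreated mean of GSTF7 at 48 h, 7.75, was its highest of the 16 groups. The median of the 33 differences was -0.00, against -0.02 over all tested probe sets.

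In Young at 48 h, GST3 and GSTU27 were higher with Al and none was lower, against 2.77% of all tested, 2.46% higher and 0.312% lower. GST3 read 11.53, 12.51 and 10.93 with Al and 8.54, 8.57 and 8.20 without, a difference of 3.22 ± 0.88 (adjusted p = 0.0393). GSTU27, a tau enzyme, read 6.43, 7.34 and 6.44 with Al and 4.79, 4.93 and 4.71 without, a difference of 1.93 ± 0.53 (adjusted p = 0.0408). For both genes all Al arrays lay above all untreated ones, and the untreated GSTU27 arrays were near background. Without any 1 of the 6 arrays 0 or 1 GST probe sets were called.

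Arrays of equal replicate number were taken as pairs in Young at 12 and 48 h, where their deviations from group means correlated. Replicate 3 there also lies in the other run of codes, so these correlations do not tell pairing from the run. With the number as a block no GST probe set was called at 12 h, and without it 1 was when Al replicate 3 was left out. With the number as a block, 4 GST probe sets were called higher at 48 h, against 3.39% of all tested. They were GST3, GSTU27, the _a_at probe set of GSTF5, at 1.28 ± 0.27, and the _at partner of the _x_at probe set of GSTU13, at 1.14 ± 0.30. The median of the 33 differences was 0.49, against -0.02 over all tested.

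At 72 h in PI 416937 no GST probe set was called, against 0.0397% of all tested, and none had an unadjusted p under 0.05. The 2 smallest p were for the _a_at probe set of GSTIR, at -0.96, and the _s_at probe set of GSTU17, at 0.44. That of GSTIR lay between -1.49 without untreated replicate 3 and -0.36 without Al replicate 1. In Young, GSTF5, GST3 and GSTU27 were higher and none was lower, against 3.7% of all tested, 3% higher and 0.7% lower. Of the 33 differences 29 were positive in Young and 19 in PI 416937, with medians of 0.52 and 0.01. The medians over all tested probe sets were -0.02 and 0.01. The difference between the genotypes' responses was not called for any of the 33.

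GSTF5, a phi enzyme, read on its _a_at probe set 11.06, 11.83 and 11.90 with Al and 9.74, 9.94 and 9.98 without in Young at 72 h, a difference of 1.71 ± 0.39 (adjusted p = 0.00922). The other 2 probe sets of the gene differed by 0.29 ± 0.32 and 0.42 ± 0.47 and were not called. In PI 416937 the first read 11.27, 11.27 and 11.35 with Al and 12.05, 11.03 and 10.95 without. The Young groups did not overlap, and those of PI 416937 did.

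GST3 in Young at 72 h read 10.45, 12.38 and 11.18 with Al and 7.34, 7.80 and 7.85 without, a difference of 3.67 ± 0.88 (adjusted p = 0.0144). In PI 416937 it read 7.69, 7.47 and 7.34 with Al, so the Al arrays there were at the level of untreated Young, while untreated replicate 1 stood at 10.87. GSTU27 in Young read 5.58, 7.23 and 7.10 with Al and 4.62, 4.73 and 5.04 without, a difference of 1.84 ± 0.53 (adjusted p = 0.0459). In PI 416937 it read 4.50, 4.72 and 4.79 with Al and 5.64, 4.72 and 4.62 without, all but 1 near background.

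Several other GSTs had differences of 1 or more in Young at 72 h that missed the threshold. GSTa differed by 1.56 ± 0.46 (adjusted p = 0.053), GSTU62 by 1.71 ± 0.56 (adjusted p = 0.0839), and 1 of the 2 _at probe sets of GSTL3 by 1.28 ± 0.44 (adjusted p = 0.0933). For each of them all Al arrays lay above all untreated arrays, which is a description of the same arrays and no further test. GSTU28, GSTU17 and GSTU58 had no call at any time of Al. Each of the 8 Al calls was lost when certain single arrays of its comparison were left out. For GSTU27 at 48 h leaving out any 1 of the 6 arrays ended the call, with differences from 1.62 to 2.08. GSTF5 in Young at 72 h lost it without Al replicate 2 or without Al replicate 3, with differences from 1.56 to 1.98 over the 6. Without either of those 2 arrays 0 GST probe sets were called in Young at 72 h, without untreated replicate 1 there was 1, and without Al replicate 1 there were 7.

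**Figure D3:**
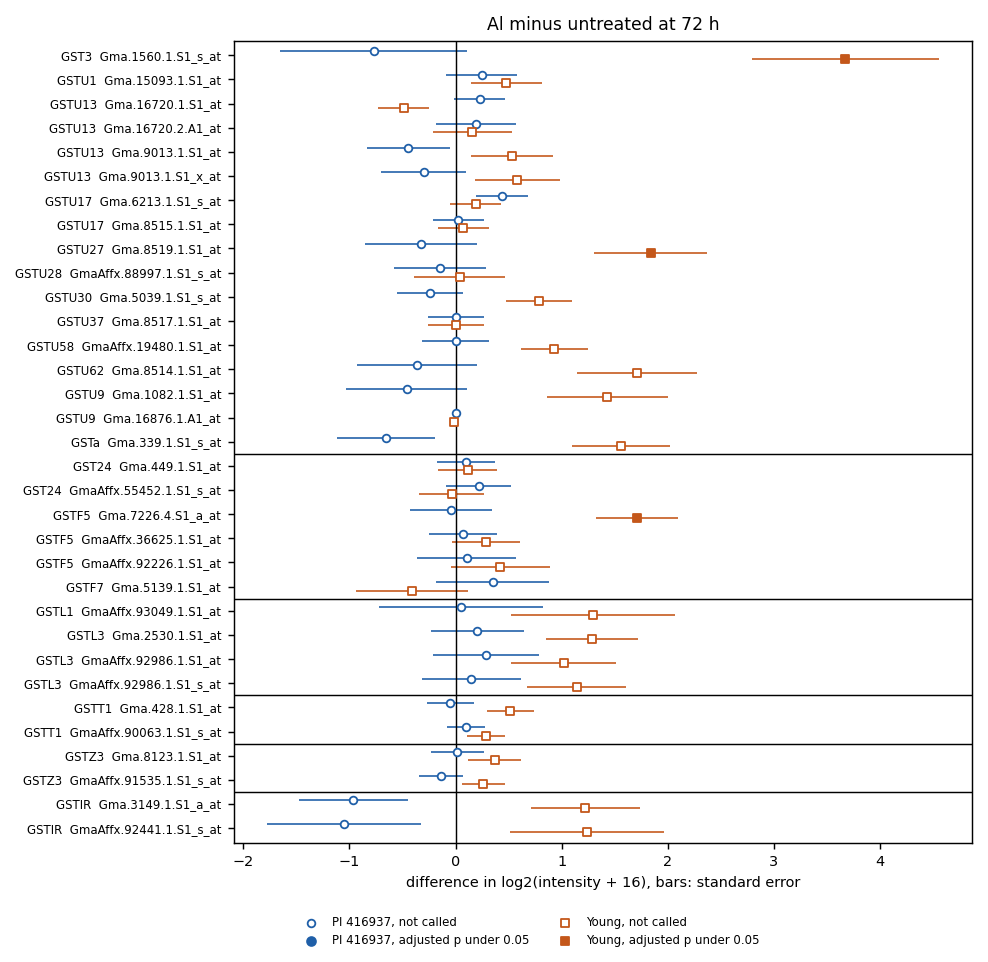
Al minus untreated at 72 h for the 33 GST probe sets in PI 416937 (circles) and Young (squares), in log2(intensity + 16). Bars are standard errors, and filled symbols have an adjusted p under 0.05. In Young 29 of 33 points lie right of 0, with GST3 at 3.67, and in PI 416937 19 do.

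**Figure D4:**
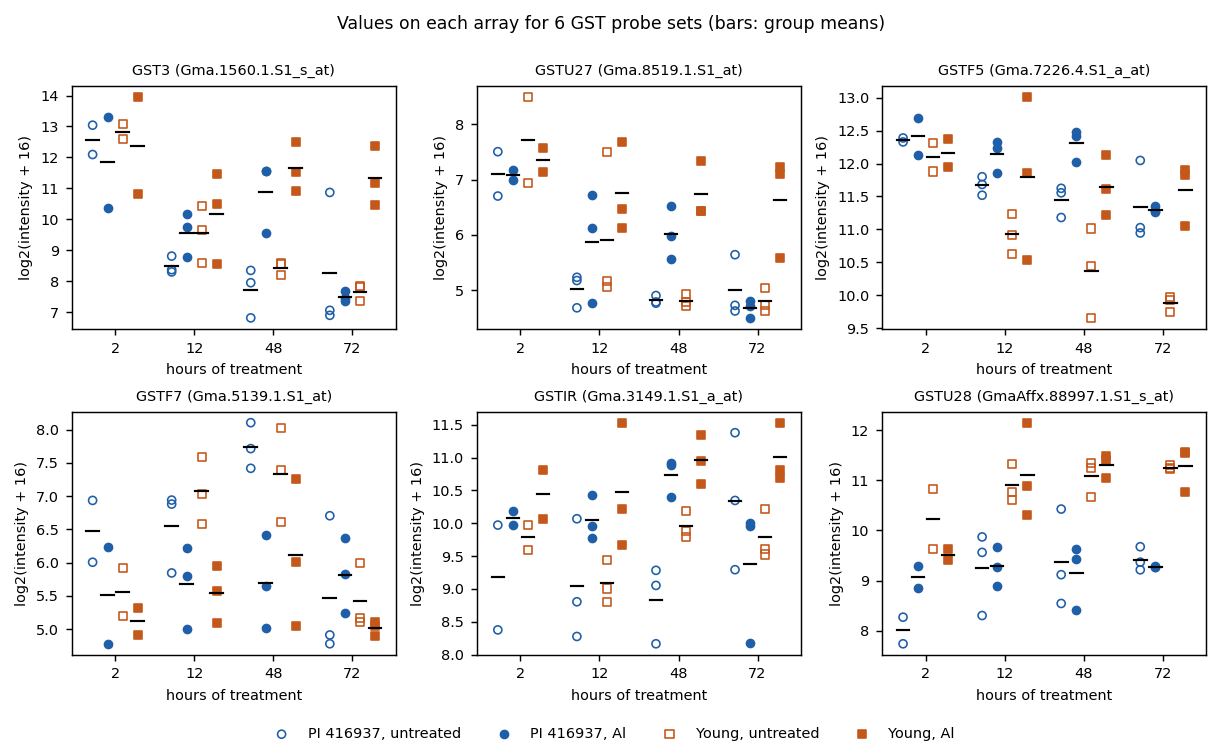
Values on each of the 44 arrays for 6 GST probe sets by hours of treatment, in log2(intensity + 16). Open symbols are untreated and filled symbols Al, circles PI 416937 and squares Young, and black bars are group means. GST3 and GSTU27 have high group means at 2 h in both genotypes. With Al, GST3 is high at 48 h in both genotypes, and GST3 and GSTU27 are high at 72 h in Young. GSTU28 is higher in Young throughout.

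Whether the genotypes responded differently was tested on the difference of the 2 responses. No GST probe set was called at 2, 12, 48 or 72 h, against 0.357%, 0%, 0.0113% and 1.71% of all tested. At an unadjusted p under 0.05, which is not a call, there were 2, 1, 0 and 11. The share of all tested at that threshold is not given, so these counts are not read as particular to GSTs. The 2 smallest p at 2 h were for GSTU28, at 1.77 ± 0.75, and the _at partner of the _x_at probe set of GSTU13, at -1.56 ± 0.67. At 12 h they were for GSTU62, at 2.20 ± 0.80, and GSTa, at 0.80. At 48 h they were for 1 of the 2 unpartnered probe sets of GSTU13, at -0.62 ± 0.34, and the _s_at probe set of GSTL3, at -0.93 ± 0.66.

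At 72 h the response of GST3 in PI 416937 minus that in Young was -4.44 ± 1.24 (adjusted p = 0.0607) and that of GSTa -2.21 ± 0.65 (adjusted p = 0.0783). Of the 33 such differences 26 were negative, with a median of -0.56 against 0.05 over all tested. Without untreated PI 416937 replicate 1 the difference was -3.15 ± 1.13 for GST3 and -1.96 ± 0.69 for GSTa, the median was -0.38, and 0.479% of all tested probe sets were called. GST probe sets were called 4 times without Young Al replicate 1, 2 times without untreated PI 416937 replicate 3 and 1 time without its replicate 2.

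Levels of several GSTs differed between the genotypes. In untreated roots, as the mean of 4 times, 1 GST probe set was higher and 7 were lower in PI 416937 than in Young, against 4.84% of all tested, 2.67% higher and 2.17% lower. With Al, 0 were higher and 10 lower, against 11.7% of all tested, 6.54% higher and 5.21% lower. The median differences were -0.20 and -0.39, against 0.01 and 0.01 over all tested. The 2 comparisons use different arrays. GSTU28, GSTU30, all 3 GSTL3 probe sets and 2 of the 4 of GSTU13 were called lower in both. GSTF5 was the one higher, in untreated roots. Probe sets of the tissue lists differed as well. With Al, 4 of 14 leaf probe sets were called higher in PI 416937 (median 0.63), and untreated 0 were (median -0.00). Of 33 root probe sets 3 were called higher and 3 lower with Al, and 2 higher and 1 lower untreated. The 1 nodule probe set differed by -1.09 with Al, called, and by -0.63 untreated, not called. Their part in the result was not tested.

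GSTU28, measured only by an _s_at probe set, which can bind related transcripts, was the most clearly separated. In PI 416937 its 22 arrays read from 7.74 to 10.43 and in Young from 9.41 to 12.15. At each of the 4 times, with and without Al, every PI 416937 array lay below every Young array, a separation in all 8 pairs of groups that 0.714% of all tested probe sets showed in one direction. At 2 h untreated it read 8.27 and 7.74 in PI 416937 and 9.62 and 10.83 in Young. At 72 h untreated it read 9.68, 9.37 and 9.21 against 11.24, 11.31 and 11.22. The difference was -1.86 ± 0.23 without Al (adjusted p = 9.9e-07) and -1.61 ± 0.23 with Al (adjusted p = 9.97e-06).

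GSTU13, a tau gene with 4 probe sets, gave 2 answers. The _at probe set with an _x_at partner was lower in PI 416937 by -1.0 ± 0.21 without Al and by -1.85 ± 0.21 with Al (adjusted p = 1.27e-07), with the arrays separated in 7 of the 8 pairs of groups. The _x_at partner, which can bind related transcripts, gave -1.07 and -1.77. The other 2 probe sets, S1_at and A1_at, gave -0.09 ± 0.13 and -0.18 ± 0.20 without Al and -0.24 ± 0.13 and -0.57 ± 0.20 with Al, none called. Over the 44 arrays the partners correlated at r = 0.983 and each at 0.512 or less with the other 2 probe sets. These correlations are across arrays that share groups and are a description. Whether the probes match both genotypes equally was not tested, for GSTU13 or for any other GST.

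GSTL3, the second lambda gene, was lower in PI 416937 on all 3 of its probe sets, which correlated at r = 0.974 or more. On the _at partner of the _s_at probe set the means were 9.95 and 11.01 in untreated PI 416937 and Young, a difference of -1.06 ± 0.26 (adjusted p = 0.0117). With Al they were 10.19 and 11.47, a difference of -1.29 ± 0.26 (adjusted p = 0.00114). The arrays were separated in 6 of the 8 pairs of groups. For separation in part of the 8 pairs, here and for GSTU13, no share of all tested is given. Of the 22 fits that left out 1 untreated array, the call was lost in 5 on the _s_at probe set and in 11 on the unpartnered one. GSTL1, the other lambda gene, was not called in either comparison.

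GSTU30, a tau enzyme, was measured only by an _s_at probe set, which can bind related transcripts. Its means were 12.99 and 13.64 without Al, a difference of -0.65 ± 0.16. With Al they were 13.29 and 14.11, a difference of -0.82 ± 0.16. With Al GSTU27, GSTU58 and GST3 were lower as well, by -0.96 ± 0.28, -0.61 ± 0.17 and -1.44 ± 0.47. GSTU58 was near background in PI 416937, at a mean of 4.55. Its call was lost with the replicate block (adjusted p = 0.0581) and without replicate 1 of Young with Al at 2 h. That of GSTU27 was lost in 2 of the 22 fits that left out 1 array. The call of GST3 (adjusted p = 0.0414) was lost in 14 of the 22 fits that left out 1 array.

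GSTF5, on its _a_at probe set, was higher in untreated PI 416937, at 11.70 against 10.82, a difference of 0.88 ± 0.20 (adjusted p = 0.00648). At 72 h untreated Young read 9.74, 9.94 and 9.98 and untreated PI 416937 12.05, 11.03 and 10.95. With Al the means were 12.04 and 11.80, a difference of 0.24 ± 0.20 without a call. Its other probe sets gave 0.36 ± 0.25 and -0.30 ± 0.17 without Al, neither called.

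**Figure D5:**
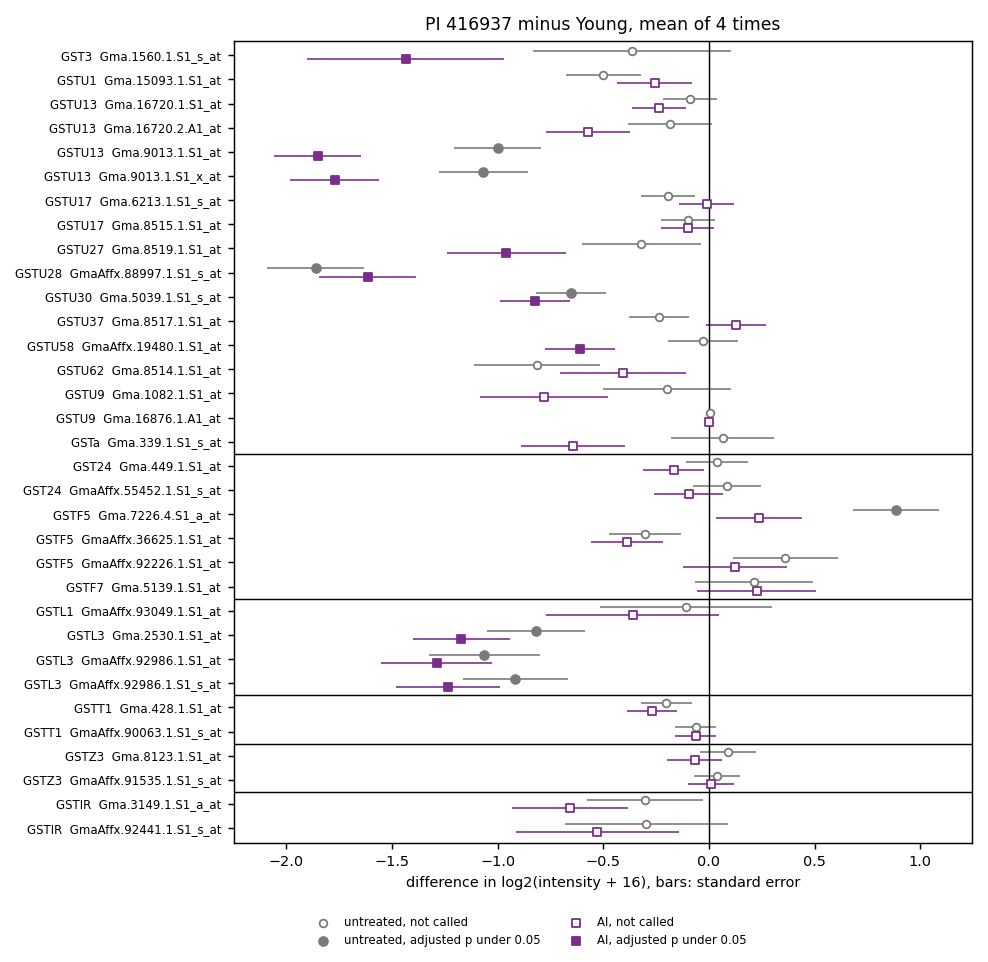
PI 416937 minus Young as the mean of 4 times for the 33 GST probe sets, untreated (circles) and with Al (squares), in log2(intensity + 16). Bars are standard errors, and filled symbols have an adjusted p under 0.05. Filled points left of 0 are those of GSTU28, GSTU13, GSTL3 and GSTU30 in both treatments and of GSTU27, GSTU58 and GST3 with Al, and the one filled point right of 0 is GSTF5 in untreated roots.

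Neighbouring genes were placed with RefSeq's Glycine_max_v4.0 assembly (cultivar Williams 82). GSTU27, GSTU28 and GSTU30 lie on chromosome 7 within 20 genes of one another, in a row of GSTs with HSP26-A and GSTU24. All 3 were called lower in PI 416937 with Al. Of the 3 probe sets annotated to both GSTU24 and HSP26-A, the S1_at probe set was lower by -2.10 ± 0.56 without Al and -3.42 ± 0.56 with Al, its _x_at partner by -2.04 and -3.45, and the A1_s_at probe set differed by -0.04 and -0.26 without a call. GST3 and GSTa lie on chromosome 15 in a row with GSTU47, GSTU49, GSTU50 and GSTU51. GST3 was measured by an _s_at probe set, which can bind related transcripts, so signal from close copies cannot be told apart.

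Among pairs of different genes, the members most alike over the 44 arrays were GST3 and GSTU27, on different chromosomes, at r = 0.88. Next came the _s_at probe set of GSTL3 with GSTU30, at r = 0.839. GSTF7 and the _s_at probe set of GSTIR ran most opposite, at r = -0.60. The arrays share groups and hybridisation, so these values are descriptions.

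The 4 genes left out, GSTU41, GSTU42, GSTU43 and GSTU47, have 9 probe sets, of which 8 were tested. Called higher with Al were 4 of the 8 in PI 416937 at 48 h, 3 in Young at 48 h and 5 in Young at 72 h. Al differences at 72 h in Young stood as 6.01 ± 1.18 for GSTU42, 5.58 ± 1.27 for 1 probe set of GSTU47 and 3.67 ± 0.88 for GST3. At 48 h GSTU41, on its _at probe set, differed by 2.78 ± 0.72 in PI 416937 and 3.05 ± 0.72 in Young, and GST3 by 3.19 ± 0.88 and 3.22 ± 0.88. The comparisons share their untreated arrays, and no test between the sets was made.

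Other genes of glutathione and ascorbate metabolism were given by 15 probe sets of APX1, APX2, DHAR3, DHAR4, GLXI, GR and PCS1. None was called in any of the 8 comparisons of Al with no Al or in the 4 differences of response. Between genotypes 2 of the 15 (13.3%) were called, untreated and with Al, against the 4.84% and 11.7% of all tested. Both code for ascorbate peroxidases, which remove hydrogen peroxide. Of 5 probe sets of APX1, 1 was lower in PI 416937 by -1.60 ± 0.20 without Al and -1.24 ± 0.20 with Al, and of 3 of APX2, 1 was lower by -0.41 ± 0.12 and -0.65 ± 0.12. Of 7 peroxidase probe sets named PRX, 1 of PRX4 was higher in PI 416937 by 2.12 ± 0.18 without Al and 1.75 ± 0.18 with Al, and another of PRX4 by 0.46 ± 0.13 without Al.

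Between early and late untreated roots 5 of the 15 were higher and 2 lower (46.7%), against 37.3% of all tested. With the code term 2 were higher and 1 lower (20.0%), against 23.0%. DHAR4, a dehydroascorbate reductase that uses glutathione to regenerate ascorbate, was higher early by 0.93 ± 0.13, and by 0.81 ± 0.14 with the term. The A1_at probe set of APX2 with an S1_at partner was higher by 0.54 ± 0.12, and by 0.36 ± 0.12 with the term. Both probe sets of PCS1, phytochelatin synthase, which makes metal-binding peptides from glutathione, were lower early, by -0.34 ± 0.09 and -0.23 ± 0.08. With the term they differed by -0.28 ± 0.10 (adjusted p = 0.0497) and -0.18 ± 0.08 (adjusted p = 0.1295).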

How the data were processed

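Total RNA of soybean root tips was labelled as cRNA and measured on 44 Affymetrix arrays of 61170 probe sets. The values used are the intensity per probe set that the authors deposited, on a linear scale. Their summarising and normalisation are not given in the sources used here. No further normalisation was made, since after the log2 step the medians of tested probe sets differed by at most 0.138 between arrays. On the linear scale, array medians were 6.56 to 7.52 intensity units. Probe sets were named from the platform annotation, which gives 1 gene for 8677 soybean probe sets and several for 370, and 8652 of the former matched RefSeq. Sequences and promoters were not used here.

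Intensities were taken as log2(intensity + 16). In R 4.3.3, limma 3.58.1 estimated the means of the 16 groups, with a variance trend, over 35289 soybean probe sets whose mean passed background in at least 1 group. In all 15 comparisons were made, each adjusted by Benjamini-Hochberg, and the fit was tested on simulated data. It had 28 residual degrees of freedom. Counted as named are GST probe sets called in a comparison, up to 12 by smallest p, or the 2 with the smallest p where none was called. Early against late calls beyond these are given in the text as well. The members and lists were chosen with earlier results of these data known.

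Replicate numbers in the labels were checked as pairs by correlating deviations from group means. Every pair exceeded 0.1 in Young at 12 h (0.241 to 0.294) and at 48 h (0.382 to 0.48), which is taken as pairing, and not in the other groups with 3 pairs. Alternatives were another offset, no filter, quantile normalization, compared groups only, no variance trend, the replicate block and leaving out each array, with a sample-code term and crossed numbers added after seeing the data.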

Additional observations from a re-analysis of the deposited data

Results flagged for a closer look

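Of the 16 GST probe sets named so by a synonym only, 1 differed between the genotypes in its response to Al by the test of the difference itself. GSTU41, GSTU42, GSTU43, GSTU47 and the probe sets annotated to several genes were not searched for such differences here. LOC547581, which carries a GST name as a synonym only, responded at 72 h by -1.57 ± 0.84 in PI 416937 and by 4.13 ± 0.84 in Young. Its means were 11.68 untreated and 10.11 with Al in PI 416937, and 10.31 and 14.44 in Young. The response in PI 416937 minus that in Young was -5.70 ± 1.19 (limma, adjusted p = 0.009). Without replicate 1 of untreated PI 416937 at 72 h it was -4.59 ± 1.12 (adjusted p = 0.0567), and the response in PI 416937 was -0.46 ± 0.84.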

How the results depend on the processing

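No called result changed direction in the alternatives run. With the sample-code term 4 uncalled early against late differences turned from above to below 0, in 2 probe sets of GSTU13, 1 of GST24 and GSTU37. The tally covers 38 calls, since named probe sets were capped by smallest p, and it leaves out part of the 19 early against late calls. Of the 38, 38 held with log2(intensity + 1) and without the variance trend, and 37 without the filter. Under quantile normalization, the replicate block and the sample-code term 36 held each, and 33 with compared groups only. The early against late calls left out were all lost with the sample-code term, so 36 of 38 is too favourable for that term. The sample-code term and the crossed pairing were chosen after seeing the data. The cause of the changes was not tested. For PI 416937 at 48 h the 3 calls were 0 with compared groups only, where the 1425 calls over all tested probe sets became 246. For Young at 48 h the 2 calls were 1 under quantile normalization and 4 with the replicate block and with the sample-code term. Over all tested the 979 calls became 993, 1196 and 1288 in that order. For Young at 72 h the 3 calls were 6 with log2(intensity + 1) and 5 with compared groups only. They were 9 with the replicate block and 7 with the sample-code term. Calls over all tested probe sets rose as well, from 1306 to 1395, 3183, 2480 and 2238 in that order. For the difference of responses at 72 h the 0 calls were 3 with the block and 2 with the sample-code term. Of all tested, 957 and 950 were then called, against 605 before. The 19 early against late calls were 10 with the sample-code term. The block moved no other count by over 1.5 times. At 72 h and in PI 416937 the numbers were not taken as pairs, and nowhere do the labels state that they are. In PI 416937 at 2 h, where same-numbered arrays correlated at -0.18, the crossed pairing gave 0 GST calls.

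Leaving out 1 array at a time gave 0 to 1 calls in PI 416937 at 2 h, 0 to 0 at 12 h, 0 to 2 at 48 h and 0 to 0 at 72 h. In Young it gave 0 to 0, 0 to 1, 0 to 1 and 0 to 7. The difference of responses gave 0 to 0 at 2, 12 and 48 h and 0 to 4 at 72 h. Between genotypes it gave 6 to 9 calls untreated and 7 to 13 with Al, and 15 to 19 between early and late. Signal near background limits 1 probe set of GSTU9 and GSTU27, GSTU37, GSTU58 and GSTU62, whose differences are understated.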

Other observations

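Of 16 further GST probe sets named so by a synonym only, 3 that rose with Al in both genotypes at 48 h are given here. The rest of the 16 are not described. LOC548031 differed by 2.39 ± 0.64 in PI 416937 and 3.21 ± 0.64 in Young, LOC547578 by 2.31 ± 0.65 and 2.54 ± 0.65, and LOC547581 by 3.24 ± 0.84 and 3.45 ± 0.84. At 72 h they differed by 2.84 ± 0.64, 2.35 ± 0.65 and 4.13 ± 0.84 in Young, all called with limma. In PI 416937 at 72 h the values were -0.49, -1.0 and -1.57, none called, and without untreated replicate 1 they were 0.05, -0.27 and -0.46. These were chosen after their values were seen.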
